A study of Caenorhabditis elegans with 2 samples.

Results

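Small nucleolar RNA (snoRNA) genes were taken as every nuclear gene of biotype snoRNA in the Ensembl annotation of the Caenorhabditis elegans genome, build WBcel235, which is ce11. There were 346 of them among 46890 nuclear genes. Each gene was given a window from 1000 bp upstream to 200 bp downstream of its annotated start, and the strongest ChIP-seq region with its summit in that window was kept. The genes were then split by whether they lay inside a protein-coding gene on the same strand, called the host here. This held for 183 snoRNA genes in 156 hosts, and 163 lay outside any such gene. Of the 183, 145 (79.2%) lay in an intron of the host. Of the 163, 33 lay inside a coding gene on the other strand.

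The assay was chromatin immunoprecipitation with sequencing of ZK185.1, a C. elegans protein assayed as a transcription factor. The 1 group held 2 biological replicates of whole hermaphrodite young adults of strain OP474, which carries unc-119(tm4063) on chromosome III and the transgene wgIs474. The transgene adds GFP and FLAG to the C terminus of the protein, and the immunoprecipitation used an antibody against GFP. Worms were collected 56.25 h after synchronization as starved L1 larvae. Whole animals were used, so the cells that a region comes from cannot be told apart, and the labels do not give the promoter that drives the transgene. No untagged or other control sample was analysed here, and no read depth is given with the region lists.

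snoRNAs guide chemical changes of other RNAs, mainly ribosomal RNA, in the nucleolus. The box C/D class guides 2′-O-methylation with the methylase fibrillarin, and the box H/ACA class guides pseudouridylation with dyskerin. Many animal snoRNAs lie in introns of genes for ribosomal proteins and other factors of protein synthesis, and are cut out of the host's transcript after splicing. Others are transcribed from a promoter of their own. In tRNA genes, RNA polymerase III is recruited through a pair of short elements inside the gene, the A box and the B box, and it stops at a run of T. In Saccharomyces cerevisiae the snoRNA gene SNR52 carries such boxes ahead of the mature RNA.

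The sequences that the results turn on are shown first. Each begins 100 bases before the annotated gene, so the snoRNA begins at base 101, and each is written 5′ to 3′ on the strand of the gene, from the RefSeq sequence of build WBcel235 (ce11). Capitals mark a pair of words in the upstream stretch. In the first 4 genes, chosen among those with the strongest summit close to their own start, TGGC, any 2 bases and AG were followed within 15 to 80 bases by GTTCNA. These words resemble the A and B boxes of tRNA genes.
F32E10.10, chrIV:7574022-7574191, plus strand: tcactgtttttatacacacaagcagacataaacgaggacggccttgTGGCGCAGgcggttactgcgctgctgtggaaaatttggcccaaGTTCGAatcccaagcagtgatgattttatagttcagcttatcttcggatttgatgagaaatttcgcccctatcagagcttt
T06C12.16, chrV:15873855-15874026, minus strand: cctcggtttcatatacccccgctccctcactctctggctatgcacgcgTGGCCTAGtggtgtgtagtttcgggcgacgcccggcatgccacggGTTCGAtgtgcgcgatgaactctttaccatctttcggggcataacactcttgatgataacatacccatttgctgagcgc
T03F7.8, chrV:11314158-11314332, plus strand: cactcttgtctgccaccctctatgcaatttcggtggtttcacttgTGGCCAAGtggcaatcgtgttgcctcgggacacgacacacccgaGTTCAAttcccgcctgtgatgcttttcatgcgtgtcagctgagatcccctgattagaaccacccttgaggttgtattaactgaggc
F55A11.10 in an intron of F55A11.6, chrV:11782892-11783082, plus strand: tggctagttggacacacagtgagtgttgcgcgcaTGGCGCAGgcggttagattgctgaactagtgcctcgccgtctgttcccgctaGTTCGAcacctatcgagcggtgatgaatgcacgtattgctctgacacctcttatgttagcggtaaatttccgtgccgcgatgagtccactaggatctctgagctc

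Another pair is shown in 3 of the genes inside introns of coding genes that hold it, again with the summit close to their own start. It was CGNAAC, any 1 base and CG, followed within 3 to 6 bases by TGTCGG.
ZK994.7 in an intron of pxn-1, chrV:8500479-8500645, plus strand: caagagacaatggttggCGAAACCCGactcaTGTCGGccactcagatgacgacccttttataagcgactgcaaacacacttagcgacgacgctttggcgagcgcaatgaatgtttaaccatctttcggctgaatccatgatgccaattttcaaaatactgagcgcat
C16D9.11 in an intron of rol-3, chrV:8228900-8229069, minus strand: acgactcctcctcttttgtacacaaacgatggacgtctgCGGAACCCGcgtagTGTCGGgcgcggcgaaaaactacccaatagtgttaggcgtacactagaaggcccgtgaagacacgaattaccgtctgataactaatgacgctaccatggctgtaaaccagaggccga
W04D2.7 in an intron of inx-11, chrV:12491180-12491346, plus strand: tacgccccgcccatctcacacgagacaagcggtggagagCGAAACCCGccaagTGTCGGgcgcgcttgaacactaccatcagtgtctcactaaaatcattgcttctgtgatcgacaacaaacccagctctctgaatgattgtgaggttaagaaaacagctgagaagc

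For contrast, a snoRNA gene in an intron of the ribosomal protein gene rpl-15, whose strongest summit lay 340 bp before the start of the host, had neither pair.
K11H12.12 in an intron of rpl-15, chrIV:653902-654130, minus strand: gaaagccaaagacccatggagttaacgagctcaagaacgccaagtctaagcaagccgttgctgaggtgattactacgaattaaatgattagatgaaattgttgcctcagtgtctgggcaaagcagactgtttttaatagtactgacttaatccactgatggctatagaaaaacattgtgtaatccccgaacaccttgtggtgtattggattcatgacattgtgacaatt

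A reproducibility-thresholded peak, meaning one of the 2053 regions in the authors' optimal irreproducible discovery rate list for both replicates, had its summit in the window of 107 of the 346 snoRNA genes (30.9%, 95% exact Clopper-Pearson interval 26.1 to 36.1). Over all nuclear genes the same window held such a summit for 5.53%, and over protein-coding genes for 6.77%. tRNA genes stood higher, with 357 of 612 (58.3%). Spliceosomal and other snRNA genes had 22 of 129 (17.1%) and microRNA genes 20 of 261 (7.66%). The shares inside and outside a host were close: 52 of 183 (28.4%, interval 22 to 35.5) and 55 of 163 (33.7%, interval 26.5 to 41.6). The intervals cover counting error only, and neighbouring genes can share a peak: the 107 genes shared 99 peaks. No test between gene classes was run for that reason.

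**Figure D1:**
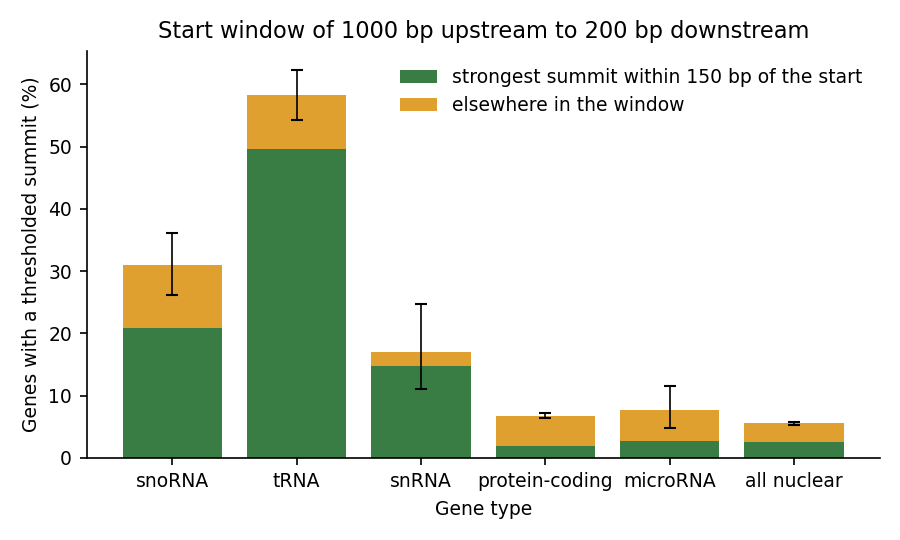
Share of genes (%, vertical axis) with a thresholded summit in the start window, by gene type; the green part of a bar is the share whose strongest summit lay within 150 bp of the start and error bars are 95% exact intervals of the whole bar. snoRNA genes, at 30.9%, lay between tRNA genes at 58.3% and snRNA genes at 17.1%, and protein-coding genes had 6.77%.

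The replicates gave like counts when each was read alone. In the relaxed lists, which hold 30000 regions each and include weak ones, replicate 1 placed a summit in the window of 213 snoRNA genes (61.6%, against 33.4% of all nuclear genes). Replicate 2 did so for 219 (63.3%, against 33.3%) and the pooled list for 224 (64.7%, against 32.4%). The strongest of these summits lay within 150 bp of the start for 33.2% of snoRNA genes in replicate 1, against 10.4% of all nuclear genes. The shares were 30.9% against 10.8% for replicate 2, and 33.2% against 10.6% for the pooled list. By chromosome, the genes with a thresholded summit were 20 of 74 on I, 25 of 71 on II, 17 of 54 on III, 21 of 59 on IV, 18 of 55 on V and 6 of 33 on X. The share of all nuclear genes was not counted by chromosome, so these counts do not compare the chromosomes.

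The summits fell into separate ranges of position. In 72 of the 346 genes (20.8%, interval 16.7 to 25.5) the strongest thresholded summit lay within 150 bp of the snoRNA's own start, against 2.48% of all nuclear genes, 1.83% of protein-coding genes, 2.68% of microRNA genes, 14.7% of snRNA genes and 49.7% of tRNA genes. That zone makes up 25.1% of the window. In the other 35 genes the summit lay between 236 and 963 bp upstream. The distance of 150 bp was set after the distances were seen and falls in a gap: F17C11.24, the farthest upstream of the first set, had its summit 132 bp before its start, and F54E7.10, the nearest of the second, 236 bp before. The median summit of the 72 was 32 bp upstream of the start (quartiles −57 and −2.75 bp), and 56 of them lay upstream.

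**Figure D2:**
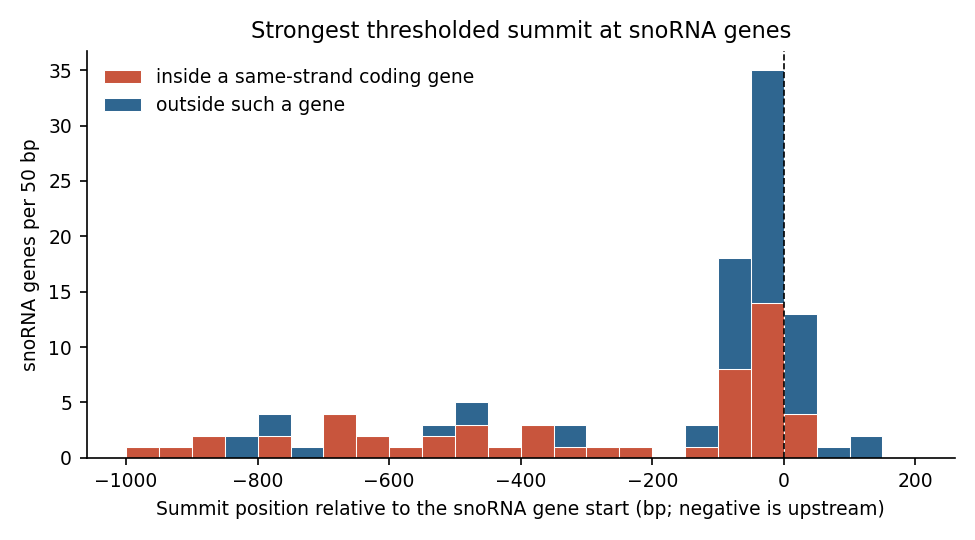
Number of snoRNA genes (vertical axis, per 50 bp) by the position of the strongest thresholded summit relative to the gene start (bp, horizontal axis; negative is upstream), for genes inside (red) and outside (blue) a same-strand coding gene. Both kinds peak in the 50 bp before the start, with 14 and 21 genes.

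Genes outside a host more often had the summit at their own start: 45 of 163 (27.6%, interval 20.9 to 35.1) had it there and 10 (6.13%) further upstream. Inside a host the numbers were 27 of 183 (14.8%, interval 9.95 to 20.7) at the own start and 25 (13.7%) further upstream. The rule's question, which start is nearer, therefore had a mixed answer. Of the 52 genes in a host with a thresholded summit, 24 (46.2%, interval 32.2 to 60.5) had the summit nearer the start of the host and 28 nearer the start of the snoRNA.

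The distance between the host start and the snoRNA start separated these kinds. Where the host start lay within 1000 bp, 25 of 57 snoRNA genes (43.9%) had a thresholded summit, 2 of them at their own start and 23 further upstream. Where the host start lay farther away, 27 of 126 (21.4%) had one, 25 at their own start and 2 further upstream. Part of this follows from the window, which does not reach a distant host start. It does not fix where in the window a summit falls. The exceptions were F39B2.14 and D1046.6 on the near side, and F26D10.24 in hsp-1 and C02F5.15 in rfs-1 on the far side. F39B2.14 in tmem-107 lies 61 bp from its host's start, with 1 summit 97 bp before the snoRNA and 36 bp before the host. D1046.6 in cfim-2 lies 941 bp into its host, with the summit 12 bp before the snoRNA.

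**Figure D3:**
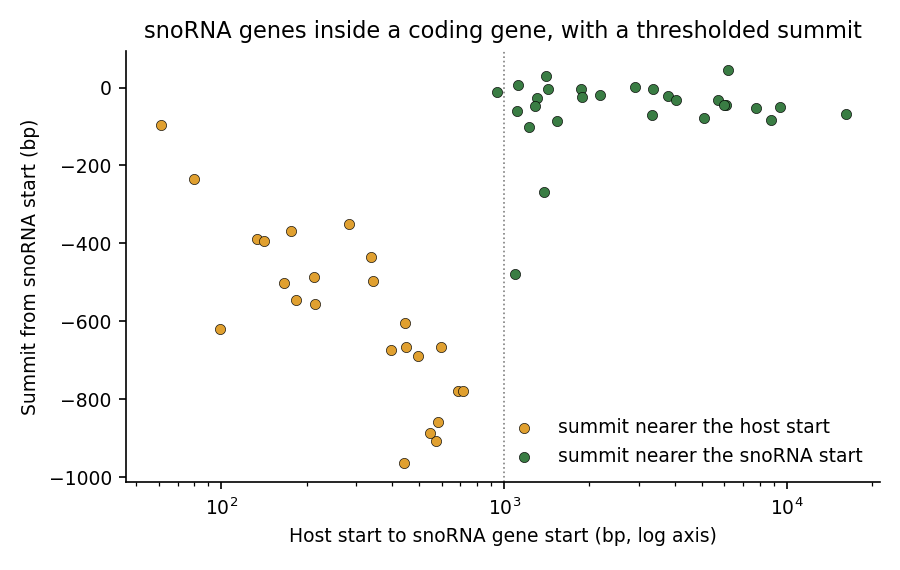
Summit position relative to the snoRNA start (bp, vertical axis) against the distance from the host start to the snoRNA start (bp, log axis) for the 52 snoRNA genes in a host with a thresholded summit; the dotted line marks 1000 bp. The 24 yellow points have the summit nearer the host start, and the green points beyond the line lie near 0 with 2 exceptions.

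The highest signal at any snoRNA gene was that of a peak before the start of a host. The signal is the authors' height of a region and has no stated scale, so ranks are given beside it. The peak at chrIV:654779-655061 served both K11H12.12 (chrIV:653902-654030, minus strand) and K11H12.13 (chrIV:654229-654361, minus strand), which lie in introns of rpl-15, a gene of the large ribosomal subunit. Replicate 1 gave it a signal of 478 and replicate 2 a signal of 392. In the thresholded list it had 886 and ranked 17. The summit lay 886 and 555 bp before the snoRNA genes and 340 bp before the start of rpl-15.

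The next was C06A1.9 (chrII:10562952-10563064, minus strand) in an intron of cdc-48.1, whose product is an ATPase that pulls ubiquitinated proteins out of complexes. Signals were 345 and 305 for replicates 1 and 2, and 706 in the thresholded list (rank 26). The summit lay 496 bp before the snoRNA and 153 bp before the host. F54E7.10 and F54E7.11 in rps-12, of the small ribosomal subunit, shared a peak of signal 201.3, 193 and 432 (rank 51), with its summit 156 bp before the host start. The start nearest to that summit was neither of these but that of ska-3, so these genes share the peak with a neighbour. F54C9.12 in iff-2, which encodes the translation factor eIF5A, had signals of 73.5 and 222 in the replicates and 317 in the thresholded list, and the replicates differed more here than at the others just named.

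Other ribosomal protein hosts also had the summit before their start. Y24D9A.9 and Y24D9A.10 in rpl-7A shared a peak of thresholded signal 233, with its summit 67 bp before the host start. F28D1.13 in rps-23 had 237, D1007.20 in rpl-24.1 had 210, and R151.11 and R151.12 in rpl-6 had 120. The lowest of these were B0041.9 in rpl-4 at 75.9 and B0412.6 and B0412.7 in rps-29 at 69.4. For B0041.9, and for H06I04.8 and H06I04.9 in ubl-1, replicate 1 had no region with a summit within 100 bp. The summits assigned to rps-23, rps-13 and rps-29 lay nearer the start of a neighbouring coding gene (dpm-3, nfx-1 and snt-2) than the host's. The same held for rpl-4 with the coding gene B0041.8, and for rpl-24.1 with the ncRNA gene D1007.22.

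Counted over hosts, 11 of the 14 cytosolic ribosomal protein genes that hold a snoRNA (78.6%, interval 49.2 to 95.3) had a thresholded summit in their own start window. They hold 21 snoRNA genes, of which 16 had a thresholded summit, and in all 16 it lay further upstream and in none at the own start. The cytosolic ribosomal protein genes without a snoRNA had 41 of 69 (59.4%, interval 46.9 to 71.1), so a summit in the start window was common with or without a snoRNA inside. rpl-2, rpl-7 and rpl-26 had none. The 142 other hosts, among them the mitochondrial ribosomal protein gene mrps-2 with none, had 23 (16.2%, interval 10.6 to 23.3), and all 156 had 34 (21.8%), against 6.77% of coding genes. Of the 3 translation factor hosts, 2 had one: iff-2, and eef-1G, a subunit of the elongation factor complex, whose peak of signal 280 had its summit 31 bp before the host start while neither of its 2 snoRNA genes had one in its window.

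Of the 25 genes in a host with the summit further upstream, 25 lay in introns, at a median of 398 bp from the host start, and 23 had the summit nearer the host. The median summit lay 216 bp before the host start. nol-56 holds 4 snoRNA genes, the most of any host, and encodes a core protein of box C/D particles. Its peak, with signals of 55.6 and 62.9 for replicates 1 and 2 and 161 in the thresholded list, had its summit 252 bp before the nol-56 start and fell in the window of only 1 of the 4, K07C5.11. top-2, a DNA topoisomerase gene with 3 snoRNA genes, had a region in each replicate (signals 101 and 95.8), and no region with a summit in its window in the pooled or thresholded lists.

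The summits at the own start belonged to different hosts. ZK994.7 (chrV:8500579-8500645, plus strand) lies in an intron of pxn-1, which encodes a peroxidasin of the extracellular matrix, 5690 bp from the host start. Its peak at chrV:8500412-8500695 had signals of 222 and 226 for replicates 1 and 2 and of 493 in the thresholded list (rank 45), with the summit 32 bp before the snoRNA. No region of the thresholded list fell in the start window of pxn-1. The upstream stretch printed above holds the second word pair.

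M106.6 in mix-1, which encodes an SMC protein of the condensin and dosage compensation complexes, lies 16071 bp from its host's start. Its signals, in the same order, were 79.6, 145 and 235.2, with the summit 67 bp before the snoRNA. C10C6.8 in catp-8, a gene of the cation-transporting ATPase family, lies 5060 bp from the host start and had signals of 139, 124 and 290. C27H6.5 in unc-41, which encodes an adaptor protein of synaptic vesicle recycling, lies 5967 bp in and had 140, 104 and 283. In all 3 the nearest start of any gene to the summit was that of the snoRNA.

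C16D9.11 in rol-3, which encodes a receptor tyrosine kinase, had signals of 38.3, 120 and 216, with replicate 2 the higher. W04D2.7 in inx-11, a gap junction innexin gene, had 60.2, 111 and 163. K11C4.6 in unc-70, the beta-spectrin gene, lies 7738 bp in and had 70.2, 98.6 and 203. C51F7.3 and C51F7.4 in frm-7 lie side by side and shared 1 peak of signal 225, 148 and 354, so it cannot be said which of them it belongs to. T08B2.13 in fars-1, which encodes a phenylalanyl-tRNA synthetase subunit, had 110, 165 and 335 with the summit 3 bp before its start.

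Over the 27 genes in a host with the summit at their own start, 24 lay in introns, at a median of 2889 bp from the host start (range 61 to 16071 bp). Of the 27, 5 (18.5%) had a host with any thresholded summit in the host's own start window, and 2 of these 5 lie in frm-7. Over all 156 hosts the share was 21.8%. In the start windows of the hosts frm-7, fars-1 and madf-11 the thresholded signals were 76.2, 72.3 and 71.7. These were below the 354, 335 and 198 at the snoRNA genes inside them. The host summits lay 17 bp after the start of frm-7, 853 bp before that of fars-1 and 353 bp before that of madf-11. In tmem-107 the same summit served both starts. Among the 25 genes with the summit further upstream, 24 had a host with a thresholded summit in its start window. This largely follows from the class, since in 23 of the 25 the summit that placed them there lay nearer the host start.

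Outside hosts, T27A8.8 (chrX:16057374-16057539, plus strand) had the highest signals, 271, 315 and 517, but its summit lay 788 bp upstream. Its own start was still the nearest of any gene outside the piRNA class. The others of the 10 highest all had the summit at their own start. Y53F4B.47 (chrII:15025814-15025893, minus strand) had 130, 232 and 413, and Y53F4B.48 (chrII:15165894-15166028, minus strand) had 114.5, 167 and 321, with summits 33 and 35 bp upstream. F32E10.10 (chrIV:7574122-7574191, plus strand) had 141, 129 and 316 with the summit 20 bp upstream, inside the stretch between both words of its pair. T06C12.16 (chrV:15873855-15873926, minus strand) had 114, 158 and 306, and T03F7.8, next below these 10, had 133, 149 and 285. Both also carry the tRNA-like pair.

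F59C6.15 had 200, 211 and 449, T19B4.8 had 159, 151 and 371, and T02E1.9 had 92.3, 144 and 290. B0334.12 and C27H5.9 lie inside coding genes on the other strand. B0334.12 had 125, 110 and 308 with the summit 116 bp downstream, beyond the end of the gene, and C27H5.9 had 82.3, 174 and 290 with the summit 36 bp upstream. A wide gap between the replicates was seen at M7.15, whose thresholded signal was 234, with 10.3 in replicate 1 (rank 6410) and 178 in replicate 2 (rank 79).

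The 72 genes at their own start had a median thresholded signal of 194 (range 58.03 to 493), with 198 in a host and 185.09 outside. The 35 with the summit further upstream had a median of 120 (58.7 to 886), and the 1935 thresholded nuclear peaks at no snoRNA gene had a median of 91.0. The median peak width was 215.5 bp at the own start, 191 bp further upstream and 316 bp for those other peaks. A summit within 100 bp was found in replicate 1 for 66 of the 72, in replicate 2 for 71 and in both for 65. For the 35 the numbers were 30, 34 and 29. Over the whole thresholded list, 1656 of 2053 peaks had such a summit in both replicates, so a match was common everywhere. In the replicate lists of 30000 regions, the matched summits at the own start had median ranks of 273 in replicate 1 and 324 in replicate 2. Across peaks matched in both replicates, the signals had a Spearman rho of 0.578 at the own start (64 peaks) and 0.697 further upstream (24 peaks). This describes regions of the same 2 libraries, each chosen for being strong in the pool.

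**Figure D4:**
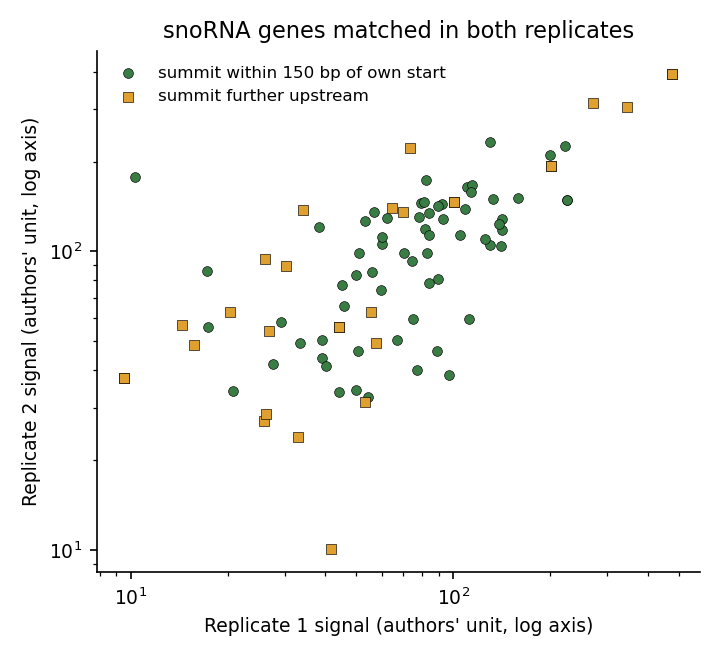
Signal of the matched region in replicate 2 (vertical, log axis) against replicate 1 (horizontal, log axis), in the authors' unit, for each snoRNA gene with a thresholded summit matched in both replicates; green circles have the summit at the own start and yellow squares further upstream. The pair of genes in rpl-15 lies at the top right (478 and 392), and M7.15 lies apart at the left (10.3 and 178).

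The 72 genes were chosen for a summit within 150 bp of their own start, which favours that start as the nearest. The nearest start of any gene outside the piRNA class was the snoRNA itself in 62 of 72, an ncRNA gene in 7, and another snoRNA, a coding gene and a pseudogene in 1 each. At F55A11.10 it was F55A11.13, an ncRNA gene on the other strand that overlaps it, and the region cannot be assigned to either. It was a tRNA gene in none, and a tRNA start lay in the window of 1. A coding gene started in the window of 15 of the 72. For the 35 with the summit further upstream the nearest start was that of a coding gene in 22, an ncRNA gene in 7 and the snoRNA in 6.

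The word pairs printed above were chosen by looking at the sequences of the genes with a summit at their own start, so their counts in that class only describe it. Words were searched on the strand of the gene from 150 bases before its start to 30 after, and no gene held both pairs. The tRNA-like pair was found in 12 of the 72 genes (16.7%), in 5 of 27 inside a host and 7 of 45 outside. It was found in none of the 35 with the summit further upstream, in 5 of the 239 snoRNA genes with no thresholded summit (2.09%) and in 0.0903% of the 46530 other nuclear genes read. At tRNA genes it was found in 2 of 612 (0.327%), where the searched stretch ends 30 bases into the gene and so does not reach a B box further inside. The second pair was found in 13 of 72 (18.1%), none of 35, 10 of 239 (4.18%) and 0.0752% of the others. The 13 include F59C6.15, F25H2.15 and Y67A10A.14, close copies of each other (93.8% to 97.1% identity), so they are not all separate cases. At snRNA genes the second pair was found in 14 of 129 (10.9%).

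In the genes with the summit at their own start, the first base of the tRNA-like pair lay 52 to 72 bases before the start, with a median of 59, and its last base at a median of 9 before. In the same class the second pair began 57 to 83 bases before, with a median of 61, and ended at a median of 42 before. In the 5 genes with the tRNA-like pair and no thresholded summit it began 50 to 137 bases before the start, and in the 10 with the second pair 60 to 76. The summit fell between the first and last base of the pair in 5 of 12 and 5 of 13 genes. The median thresholded signal was 275 with the tRNA-like pair (150 to 371), 138 with the second pair (82.1 to 493) and 185.09 with neither (58.03 to 413, 47 genes), and the ranges overlap. GTTCNA alone was common, found in 41.7% of the 72 but also in 18.1% of other genes.

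A run of 4 T within the 30 bases after the gene end was found in 57 of the 72 genes (79.2%), against 12 of 35 (34.3%), 114 of 239 (47.7%) and 46.1% of all other nuclear genes. In tRNA genes it was found in 98.9%. Inside a host it was found in 24 of the 27. Within the gene itself the order was reversed: 37.5% at the own start, 77.1% further upstream and 73.6% with no thresholded summit. Over the 130 bases from the gene start, whatever the gene length, the shares were alike (76.4%, 74.3% and 74.1%, and 78.6% of other genes). So the contrast holds only for the bases after the annotated end. The genes at their own start were also shorter, with a median of 87.5 bp against 131 bp for those with the summit further upstream and 134 bp for those with none. CTGA, the D box of box C/D snoRNAs, was found in the last 15 bases of 36 of the 72 (50%), 5 of 35 (14.3%), 36 of 239 (15.1%) and 4.41% of other genes. TGATGA, the core of the C box, was found in the first 25 bases of 9 of 72 (12.5%), 1 of 35, 11 of 239 (4.6%) and 0.952% of other genes. Anywhere in the gene, CTGA was found in 69.4%, 45.7% and 50.2% of these snoRNA classes in the same order, a smaller contrast. TGATGA anywhere in the gene was found in 26.4%, 5.71% and 12.6%. These are short words and a match is not a site.

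**Figure D5:**
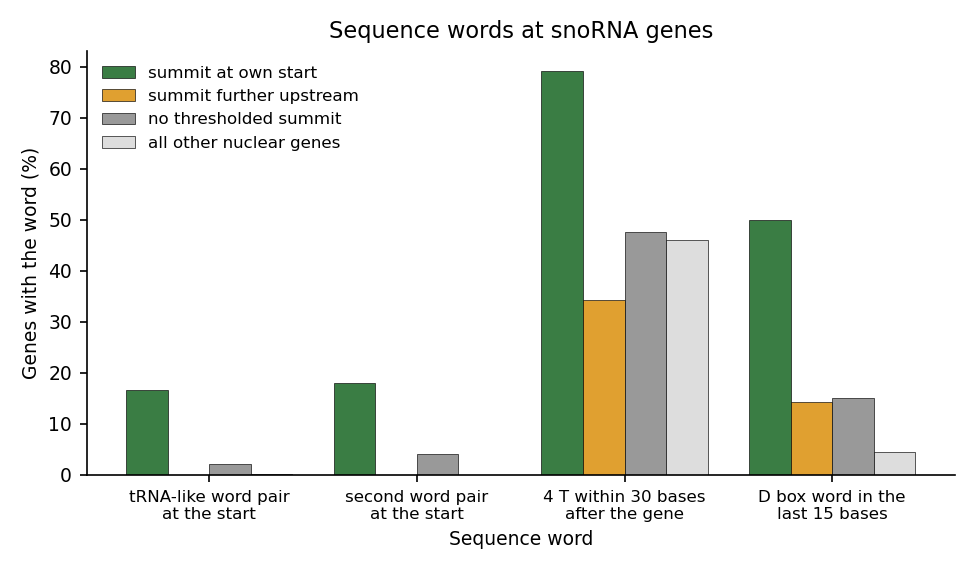
Share of genes (%, vertical axis) with each word or word pair (horizontal axis), for snoRNA genes with the summit at the own start (72), further upstream (35) or with no thresholded summit (239), and for all other nuclear genes. The run of T is found in 79.2%, 34.3%, 47.7% and 46.1%, and neither pair in any gene with the summit further upstream.

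Within 50 bp of the summits, on both strands, GGTTCGA, the core of the B box, was found at 4 of 71 peaks of the own-start genes (5.63%), none of 28 further upstream and 5.41% of all nuclear thresholded peaks. TATAAA was found at 7.04% and 7.14% of these peaks and 5.65% of all. GAGAGA was found at 11.3% and 17.9%, against 21.3% of all.

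The other 239 snoRNA genes had no thresholded summit in the window. In 117 of them the pooled relaxed list had a region, with a median signal of 20.3 (8.65 to 56.1), and in 43 the strongest such region lay within 150 bp of the own start. In 89 no list had any region, and in the other 33 only a replicate list had one. In 8 of these 33 a replicate had a region among its own 2053 strongest, and in 2 of the 8 both replicates did. F30H5.4 had signals of 95.6 in replicate 1 and 151 in replicate 2, with summits 12 and 41 bp after its start. W08G11.6 in W08G11.3 had 83.4 and 114, with summits 31 and 25 bp before its start. Y43F8C.22 and Y39G10AR.24, which both hold the tRNA-like pair, had 184 and 109.75 in replicate 1 alone. Whether the pooled and thresholded lists used here hold every region called is not known, so no thresholded summit means that none was listed, and these genes are in the class of 239 although a replicate had a strong region. Among the pooled regions listed, the authors' threshold fell at a signal of 57.0, the lowest in their thresholded list. Just inside it were F48A9.6 in let-607 at 58.03 and Y37E3.21 and Y37E3.22 in Y37E3.8 at 58.7. Just outside were Y73B6A.14 in Y73B6A.1 at 56.1, M03D4.78 at 55.0, R144.18 in larp-1 at 52.1, F59G1.14 in cgt-3 at 49.5 and F43A11.8 at 47.8. F43A11.8 holds the second word pair, with its summit 8 bp after its start. Of the 17 genes with the tRNA-like pair 5 had no thresholded summit, and of the 23 with the second pair 10 had none.

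Proteins that build and process snoRNA particles were read from a list of 23 names, of which 14 matched a symbol in the annotation. Of the 14, 6 had a thresholded summit in the start window (42.9%, against 6.77% of coding genes). Among the box C/D core proteins, nol-56 had 161 with its summit 252 bp before the start, fib-1, which encodes fibrillarin, had 122 at 67 bp, and nol-58 had 82.6 at 309 bp. Of the assembly ATPases, ruvb-1 had 108 at 127 bp before the start and ruvb-2 had 96.4 at 111 bp. Of the box H/ACA proteins, nola-3 had 78.3 at 665 bp before the start, while dkc-1, which encodes dyskerin, had 41.7 in the pooled list and was below the threshold. nol-10 had 56.7 in the pooled list, just below it. Y48A6B.3, gar-1, nop-1, zhit-1, zhit-3 and xrn-2 had no thresholded summit. In C. elegans the symbol gar-1 names an acetylcholine receptor gene and nop-1 a gene of early embryonic contractility, so neither belongs to the particles. nol-56 counts both here and among the hosts.

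Some snoRNA genes have close copies, at which reads could be split or misplaced. At 90% identity or more there were 7 pairs over 11 genes, and 7 of these genes had a thresholded summit, all at the own start. F59C6.15, F25H2.15 and Y67A10A.14 had signals of 449, 105 and 112, ZK643.9 and K09E9.5 had 168 and 90.2, and C46C2.8 and C53B7.8 had 224 and 121. How the authors placed reads with several matches is not given in the sources used here, so these values are uncertain.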

How the data were processed

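ChIP-seq of GFP-tagged ZK185.1 was read in 1 group of 2 biological replicates. The authors' deposited region lists on ce11 give, per the manifests deposited with them, regions called from the alignments with a control alignment. The reproducibility list was made by the authors from both replicates, and the relaxed lists hold 30000 regions each, pooled or per replicate. The sources used here do not name the aligner, the caller or the reproducibility threshold. Column 7 of the deposited lists is the signal of a region, with no stated scale. Column 9 of the deposited lists is the −log10 q-value, used in 1 alternative only. Depth is unknown, and intervals are 95% exact Clopper-Pearson intervals that cover counting error only.

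Summits were assigned to genes of Ensembl release 115 with Python 3.11.15 and numpy 2.4.6, and intervals came from scipy 1.17.1. Sequences were read from the RefSeq genome of the same build. The window assignment was checked on simulated regions. No test was run, since there is 1 group and neighbouring genes share peaks. Genes were named by rule: the 20 highest signals, the 10 highest outside a host, the 5 highest in a host that starts over 1000 bp upstream, the 5 highest below the threshold, hosts of 4 or more snoRNA genes, and hosts of those named. Other members named as examples, the edges and the word-pair genes were chosen after their values were seen. The members, lists, the 150 bp distance and the word pairs were chosen with earlier results of these data known. Alternatives changed the window, the threshold, replicate support, gene assignment, host strand and the ranking column.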

Additional observations from a re-analysis of the deposited data

How the results depend on the processing

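Of 53 alternatives, 48 kept their count within 1.5 times the main one and 5 moved further. Some of the 48 could not change, since the host strand and the ranking column do not alter how many snoRNA genes have a summit. Counting a peak only for the gene with the nearest start lowered the snoRNA genes with a thresholded summit from 107 to 69, those in a host from 52 to 22, and hosts with a summit in their own start window from 34 to 18. It left 0 of 24 genes with the summit nearer the host, which follows from the rule itself. A window from 500 bp upstream left 9 of those 24. To leave out a replicate, the 2053 strongest regions of the other replicate's relaxed list were read, a number matched to the thresholded list. Without replicate 1 or replicate 2 in turn, the counts ranged from 106 to 107 for all snoRNA genes, 50 to 53 in a host, 54 to 56 outside, 17 to 24 nearer the host start, 26 to 37 for hosts and 74 to 78 at the own start. The count of 72 at the own start ranged from 63 to 74 under the other alternatives, all chosen after seeing the data. The share of all nuclear genes with a summit moved too, from 5.53% to 3.41% with the stronger part of the thresholded peaks, where snoRNA genes had 25.4%. Depth is unknown, so a gene without a region is one with no region listed. No paired analysis was possible because there is 1 group.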
